A study of Mus musculus with 2 samples.

Results

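Collagen-producing cells with high levels of the actin gene Acta2 and its partner Tagln were described here in prostate tumours of mice of 2 genotypes. A cell was a member when it held over 200 and under 7000 genes, under 15% mitochondrial UMIs and at least 1000 UMIs, no UMI of the leukocyte gene Ptprc or the endothelial gene Pecam1, a sum of Col1a1, Col1a2, Col3a1 and Dcn of at least 20 per 10000 UMIs and a sum of Acta2 and Tagln of at least 5 per 10000 UMIs. A UMI, or unique molecular identifier, marks 1 captured RNA molecule. The rule found 257 cells in the DoubleTg library and 117 cells in the TripleTg library, 374 cells of the 19116 that met the limits on genes, mitochondrial UMIs and depth and of the 21564 in both matrices. They are called contractile cells below, and the other collagen-high cells, 869 in DoubleTg and 413 in TripleTg, are called Acta2/Tagln-low cells. Because measured values chose the members, the comparison of these classes within a library is a description, and no test was made of it.

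The DoubleTg library, from tissue labelled prostatic adenocarcinoma, was of genotype hHGFtg:H11hMET/+:PBCre4. The TripleTg library, from tissue labelled prostatic carcinoma, was of a genotype with the same alleles and Ctnnb1 L(Ex3)/+. Both therefore carried hHGFtg, a human HGF transgene expressed in the whole body, and hMETtg, a human MET transgene at the H11 locus whose CAG promoter is blocked until Cre removes a stop cassette. PBCre4 expresses Cre from a probasin promoter in prostate epithelium, where it also removes exon 3 of the floxed Ctnnb1 allele and leaves a stabilised β-catenin. Whether Cre acted in fibroblasts was not checked. The age of the sequenced animals is not given in the sources used here, nor is any treatment of them in the labels. Each genotype was 1 library, so genotype, animal, library and the filtering of the deposited matrix cannot be told apart, and no difference between libraries has a replicate check. Every interval given in parentheses is a 95% interval of the counting error and of nothing else.

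The glands of the mouse prostate are wrapped in a thin sheath of smooth muscle and fibroblasts, and Acta2, which encodes smooth muscle α-actin, and Tagln, which encodes transgelin (SM22), are expressed in smooth muscle cells, in pericytes of small vessels and in activated fibroblasts (myofibroblasts). Fibroblasts add collagens and decorin, and prostate stroma also secretes Wnt antagonists, insulin-like growth factor binding proteins and chemokines that act on the epithelium and on immune cells. Serum response factor drives many contractile genes through a promoter element named the CArG box.

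One promoter of a contractile gene is shown because Myl9, the regulatory light chain of smooth muscle myosin, was among the genes that differed most between contractile and Acta2/Tagln-low cells in both libraries. The 60 bases, from RefSeq on build GRCm38.p6 at chr2:156775278-156775337 on the plus strand, surround the CArG box in capitals, which begins 161 bases before the start that RefSeq gives for the gene.
Myl9: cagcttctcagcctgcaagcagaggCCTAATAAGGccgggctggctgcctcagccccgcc
The box was searched on both strands in the 250 bases upstream of each start, and no other motif was searched. It was present in 482 of 32851 promoters (1.47%) and in 2 of the 22 promoters (9.09%) found for 19 of the 22 genes made up of the contractile list, Acta2 and Tagln. The other promoter with the box was that of Myl6. Its log2 ratios of contractile over Acta2/Tagln-low cells were 0.63 in DoubleTg and 0.86 in TripleTg, under 2-fold. They were past 2-fold in both once cells with epithelial RNA were left out. Tagln, Actg2 and Myh11 had no entry. A match is a description of these letters and no evidence of binding. The other promoters have no exact box in this window, which says nothing of the factor.

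Contractile cells made up 2.61% (2.30 to 2.94) of the 9854 DoubleTg cells and 1.26% (1.05 to 1.51) of the 9262 TripleTg cells that met the limits. Of the collagen-high cells they made up 22.8% (20.4 to 25.4) of 1126 and 22.1% (18.6 to 25.9) of 530. These are shares of the cells recovered after digestion with collagenase and TrypLE. A contractile cell held a median of 8822 UMIs in the DoubleTg library and 9210 in the TripleTg library, against 9639 and 5785 UMIs in the Acta2/Tagln-low cells, and the summed UMIs of the contractile cells were 2710902 and 1387090. The sum of Acta2 and Tagln ran from 5.09 per 10000 UMIs over a median of 22.5 to 574 in DoubleTg, and from 5.15 over 18.7 to 335 in TripleTg. The nearest cells outside the rule stood at 4.97 and 4.93, and 29 DoubleTg and 19 TripleTg members passed on fewer than 5 Acta2 and Tagln UMIs. The threshold therefore cuts a continuous range and does not bound a separate type.

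Epithelial RNA was present in many of these cells and moved with the class. At least 5 UMIs per 10000 of Epcam, Krt5, Krt8 and Krt18 were found in 80 of 257 DoubleTg members (31.1%, 25.5 to 37.2) and 61 of 117 TripleTg members (52.1%, 42.7 to 61.5), against 499 of 869 (57.4%, 54.1 to 60.7) and 315 of 413 (76.3%, 71.9 to 80.3) Acta2/Tagln-low cells. No doublet caller was run, and how much of this RNA came from doublets and how much from free RNA was not tested. The main counts and ratios are therefore also given for the 177 and 56 members and the 370 and 98 Acta2/Tagln-low cells under this limit, called filtered cells below. The collagen minimum was passed on Dcn without a Col1a1, Col1a2 or Col3a1 UMI by 34 and 3 members and by 392 and 70 Acta2/Tagln-low cells. The libraries shared 30 barcodes, none of them among the members.

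The rule genes and the markers that describe this class were examined first. Acta2 (ENSMUSG00000035783, chromosome 19, 34241090 to 34255590, minus strand, build GRCm38) stood at 2127 (2072 to 2183) CPM (the UMIs of a gene per 1000000 UMIs summed over the cells of a class) in DoubleTg and 2072 (1997 to 2149) CPM in TripleTg contractile cells. Tagln (ENSMUSG00000032085, chromosome 9, 45929619 to 45936058, minus strand) stood at 4280 (4203 to 4359) and 2027 (1952 to 2103) CPM. Both genes chose the cells, so these levels are a description. The intervals of Acta2 overlapped between the libraries, and the Tagln level was lower in TripleTg. In the Acta2/Tagln-low cells Acta2 stood at 7.77 and 30.4 CPM and Tagln at 40.4 and 58.0 CPM.

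Of the other markers of the class, Mgp, Igfbp5 and Wif1, all were higher in DoubleTg contractile than Acta2/Tagln-low cells. Mgp (chromosome 6, 136872435 to 136875823, minus strand) encodes matrix Gla protein, which inhibits calcification, and stood at 18620 CPM in contractile and 5481 CPM in Acta2/Tagln-low DoubleTg cells. Igfbp5 (chromosome 1, 72857932 to 72874884, minus strand), a secreted binding protein of insulin-like growth factors, stood at 4262 and 1066 CPM. Wif1 (chromosome 10, 121033960 to 121100650, plus strand), a secreted inhibitor that binds Wnt ligands, stood at 844 and 349 CPM. In filtered DoubleTg cells the log2 ratio of contractile over Acta2/Tagln-low cells was 0.95 for Mgp, 1.37 for Igfbp5 and 0.35 for Wif1, so the Wif1 difference was under 2-fold there, and over all cells it was 0.93 without the one member with the most Wif1.

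TripleTg went against 2 of the 3 markers. Wif1 stood at 117 CPM in contractile and 712 CPM in Acta2/Tagln-low TripleTg cells, a log2 ratio of -2.61 (-2.85 to -2.38). Igfbp5 stood at 544 and 794 CPM (-0.55, -0.67 to -0.43). Mgp was at 12030 and 8974 CPM (0.42, 0.40 to 0.45), against 1.76 (1.75 to 1.78) in DoubleTg. In filtered TripleTg cells all 3 were lower in contractile cells, with ratios of -3.97 for Wif1, -1.73 for Igfbp5 and -0.53 for Mgp. TripleTg epithelial cells held 187 CPM of Wif1, with a UMI in 52.0% of 6883 cells at a median of 23074 UMIs. TripleTg immune cells, which should lack the gene, had a UMI in 11.5% (7.43 to 16.8) of 200 cells at a median of 8514.5 UMIs, and the contractile cells had one in 14.5% (8.70 to 22.2) of 117. The intervals of the TripleTg shares overlapped, although the 13 contractile cells with Wif1 and no Rgs5 held 158 UMIs of it (1678 CPM, and 1235 CPM without the highest cell) and were chosen by this gene. In DoubleTg 30.4% (24.8 to 36.4) of 257 contractile cells and 0.697% of 287 immune cells had a Wif1 UMI. Because Wif1 and Igfbp5 were lower in the TripleTg members, the cells are called by the rule, and a place next to glands was not measured.

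**Figure D1:**
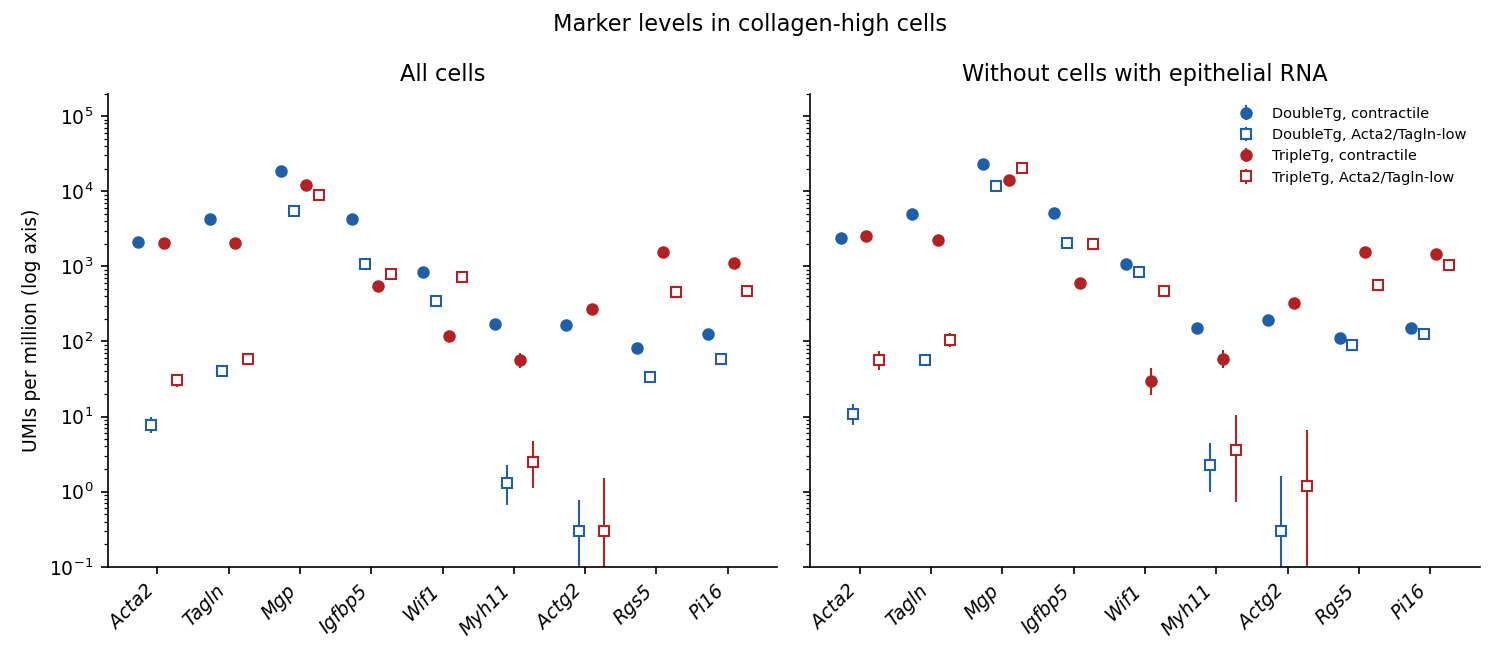
Levels of 9 genes in CPM on a log axis in the contractile (filled circles) and Acta2/Tagln-low (open squares) cells of DoubleTg (blue) and TripleTg (red), for all cells (left) and for filtered cells (right). Bars are exact Poisson 95% intervals of the summed UMIs, cut at the lower edge of the axis, and levels under 0.3 are drawn at 0.3; Wif1 and Igfbp5 lie above the Acta2/Tagln-low cells in DoubleTg and below them in TripleTg.

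Of the contractile apparatus, the actin, myosin and regulatory proteins of smooth muscle, part of the genes were higher in contractile cells of both libraries. A gene was counted as higher or lower when it differed by at least 2-fold and had at least 50 CPM in either group. Of the 20 listed genes, 16 had enough UMIs to be counted in DoubleTg, and 8 of them were higher in contractile cells and none lower, with a median log2 ratio of 0.94. In TripleTg 9 of 15 were higher and none lower, with a median of 1.40. Under TMM scaling the medians were 0.81 and 1.27. Over all genes counted, 7.18% of 2993 were higher and 4.98% lower in DoubleTg (median -0.02), and 7.50% of 3052 were higher and 5.70% lower in TripleTg (median 0.13). The rule used this contrast, so nothing is read from the counts. Under TMM scaling every ratio shifted by -0.13 in DoubleTg and -0.12 in TripleTg, and 177 genes were higher and 189 lower in DoubleTg (215 and 149 without it) and 169 and 191 in TripleTg (229 and 174 without it). In filtered cells 13 of 16 were higher in DoubleTg and 8 of 15 in TripleTg, where 3.74% and 3.40% of all genes were higher and 2.09% and 3.63% lower.

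Myh11, the heavy chain of smooth muscle myosin, stood at 170.4 (155 to 187) CPM in DoubleTg contractile cells and 1.29 (0.669 to 2.26) CPM in Acta2/Tagln-low cells, and at 56.2 (44.5 to 70.2) and 2.49 (1.14 to 4.72) CPM in TripleTg. Actg2, smooth muscle γ-actin, stood at 163 (148 to 179) and 268 (242 to 297) CPM in contractile cells, against 2 UMIs in all DoubleTg and 1 UMI in all TripleTg Acta2/Tagln-low cells, log2 ratios of 9.56 (7.70 to 12.61) and 9.92 (7.44 to 15.23). Cnn1, the actin-binding protein calponin, stood at 123 (110.3 to 137) and 30.3 (21.8 to 40.9) CPM, against 3 UMIs and 1 UMI, ratios of 8.57 (7.01 to 10.86) and 6.78 (4.22 to 12.11). These genes mark smooth muscle, and they were near 0 in the other collagen-high cells of both libraries. The smooth muscle markers Des and Smtn were not, with 768 and 735 UMIs in DoubleTg and 211 and 81 UMIs in TripleTg Acta2/Tagln-low cells. Smtn had log2 ratios of -0.45 in DoubleTg and 0.37 in TripleTg. One TripleTg contractile cell held 39.2% of the Actg2 UMIs and one held 34.6% of those of Myh11. A UMI of Myh11 was present in 24.9% (19.7 to 30.7) of DoubleTg and 16.2% (10.1 to 24.2) of TripleTg members, and in 8.95% and 4.27% after each cell was thinned to 1000 UMIs, against 0.10% of 1000 thinned epithelial cells drawn from each library. Most members therefore had no Myh11 UMI at this depth.

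Genes of the force-generating unit that are also expressed outside muscle showed smaller ratios. Myl9 stood at 665 and 26.8 CPM in DoubleTg (log2 4.63, 4.44 to 4.83) and at 334 and 24.0 CPM in TripleTg (3.80, 3.47 to 4.15). Mylk, the kinase that activates the light chain, had ratios of 2.99 and 2.42, and Cald1 (caldesmon, an actin-binding regulator) had 1.59 and 1.62. Des, the intermediate filament protein desmin, had 2.06 and 1.40. The tropomyosins depended on the cells used in DoubleTg. Tpm1 had a ratio of -0.19 over all DoubleTg cells and 1.12 in filtered ones, and Tpm2 had 1.13 and 2.98, while in TripleTg they were at 1.24 and 3.28 over all cells. Epithelial cells also held these transcripts, Tpm1 at 512 CPM in DoubleTg.

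A further 15 DoubleTg and 14 TripleTg cells had Acta2 and Tagln, little collagen, no Epcam and a UMI of Myh11 or Rgs5, and are called collagen-low cells below. Rgs5 was present in 14 and 12 of them, and their pericyte markers summed to 6303 and 4079 CPM against 3331 and 2103 CPM for their smooth muscle markers. Myh11, at 1056 (899.6 to 1232) and 837 (655 to 1054) CPM in them, also chose them, so it was not set against the contractile cells. Pdgfra, a receptor of fibroblasts, was higher in the contractile cells, at 196 (179 to 213) against 13.0 (1.58 to 47.1) CPM in DoubleTg. In TripleTg Pdgfra stood at 143 (124 to 164) CPM in contractile cells and at 0 UMIs in the collagen-low cells.

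Over all cells the pericyte genes counted were mostly higher in contractile than Acta2/Tagln-low cells, but DoubleTg Rgs5 did not rise steadily with Acta2 and Tagln. It stood at 14.8 CPM in the 64 DoubleTg members with 5 to 10 Acta2 and Tagln UMIs per 10000. In the 81 DoubleTg members with 50 and over it was at 0 UMIs. In DoubleTg the 2 counted, Rgs5 and Cspg4, were higher in contractile cells, although Rgs5 was at 0.78 without the member with the most of it, and in TripleTg 6 of 7 were, with a median of 2.03. In filtered cells none of 2 was higher in DoubleTg and 4 of 7 were in TripleTg. Their summed level was 215 CPM in DoubleTg and 2406 CPM in TripleTg contractile cells, against 83.1 and 657.8 CPM in Acta2/Tagln-low cells and 6303 and 4079 CPM in the collagen-low cells, which were partly chosen by Rgs5.

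The 12 genes outside the rule with the highest ratios in both libraries, ranked by the smaller of their ratios, included Actg2, Myh11, Myl9, Foxs1, Mylk, Nexn, Tnc, Col8a1, Postn, Gng11 and Cald1. Foxs1, a forkhead transcription factor, stood at 53.1 and 6.69 CPM in DoubleTg and 57.7 and 10.2 CPM in TripleTg. Foxs1 was higher in filtered contractile cells too, by 2.56 and 2.14 on the log2 scale. In filtered cells Tpm2, Pdgfa, Igfbp2, 6030408B16Rik and Tpm1 took the places of Nexn, Col8a1, Postn, Gng11 and Cald1 among the 12. Pdgfa, a growth factor that signals to Pdgfra, stood at 79.1 and 31.5 CPM in filtered DoubleTg and 134 and 53.6 CPM in filtered TripleTg cells.

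The 12 genes with the lowest ratios over all cells, among them Aqp3, Cldn4, Kcnk1, Cbr2, Lypd3, Lmo7, Prr9, Ly6d, Epcam, S100a14 and Krt15, were mostly epithelial genes such as the junction protein Cldn4 (-2.43 and -2.53) and the adhesion molecule Epcam (-2.04 and -2.10). In filtered TripleTg cells Cbr2, Lypd3 and Epcam had ratios of 1.02, 0.60 and 0.11. All 7 epithelial markers were lower in contractile cells of both libraries, with medians of -1.56 and -2.10, and in filtered cells none of the 3 counted was. Their summed level was 2335 CPM in DoubleTg and 1183 CPM in TripleTg contractile cells, against 6978 and 4787 CPM in Acta2/Tagln-low cells. In filtered cells the 12 lowest were Cxcl13, Sult1e1, Clec3b, Cd34, Efemp1, Matn2, Hgf, Tnxb, AI607873, Gsn, C7 and the transgene hHGFtg, among them the Pi16-type fibroblast genes Clec3b, Cd34 and Gsn.

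The extracellular matrix genes were higher in contractile cells when all cells were taken and mostly within 2-fold in filtered cells. Of the 33 listed genes, 20 of 31 counted were higher in DoubleTg and 23 of 33 in TripleTg, with none lower in either, and the medians were 1.27 and 1.26. In filtered cells 7 of 32 were higher and 1 lower in DoubleTg, and 2 of 33 were higher and 2 lower in TripleTg, with a median of 0.47 in each. Tnc, which encodes tenascin-C of remodelling matrix, was higher in every case, at 138 and 30.2 CPM in DoubleTg, 176 and 46.7 CPM in TripleTg, and by 1.47 and 1.83 on the log2 scale in filtered cells. Postn, periostin, stood at 107 and 13.2 CPM in DoubleTg and at 353 and 109.9 CPM in TripleTg. One cell held 36.6% of the DoubleTg Postn UMIs of the contractile cells, and one held 50.2% of those of Eln (elastin). Fn1, fibronectin, had ratios of 2.40 (2.20 to 2.61) in DoubleTg and 1.57 (1.49 to 1.66) in TripleTg, and 2.12 and 0.81 in filtered cells. Efemp1, a fibulin, was lower in filtered contractile cells of both libraries (-1.57 and -1.56).

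The insulin-like growth factor binding proteins differed by member. Igfbp2 was higher in contractile cells of both libraries, at 689 (658 to 721) against 99.5 (93.2 to 106) CPM in DoubleTg and 190.3 (168 to 215) against 68.5 (60.2 to 77.6) CPM in TripleTg, and by 2.78 and 1.25 on the log2 scale in filtered cells. Without cells with Myh11, Actg2, Des or Rgs5 the TripleTg ratio of Igfbp2 was -0.036. The collagen-low cells held it as well, at 1630 and 2185 CPM. Igfbp7 stood at 6369 against 1605 CPM and 8519 against 3544 CPM. Igfbp5 had ratios of opposite sign in the libraries, as given with the markers. Of the 8 genes of the IGF list counted, 3 were higher in DoubleTg (Igfbp2, Igfbp5 and Igfbp7) and 2 in TripleTg (Igfbp2 and Igfbp7), and none was lower. In filtered cells 3 were higher and none lower in DoubleTg, while in TripleTg 1 was higher (Igfbp2) and 2 were lower (Igfbp3 and Igfbp5). Igf1 and Igfbp6 were within 2-fold in both libraries.

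The Wnt genes differed between the libraries in number counted past 2-fold. In DoubleTg 8 of 9 counted genes were higher in contractile cells, Wnt2, Wnt11, Rspo3, Wif1, Sfrp1, Sfrp2, Frzb and Dkk2, and Wnt4 was lower, with a median of 1.39. In filtered DoubleTg cells 3 of 8 were higher, the secreted antagonists Sfrp2 (1.61), Frzb (3.0) and Dkk2 (1.18), and none was lower. In TripleTg none of 12 was higher and 2 were lower, Wif1 and Wnt6, with a median of 0.30, and in filtered TripleTg cells none of 11 was higher and 2 were lower, Rspo3 and Wif1. Frzb stood at 147 (133 to 162) against 9.82 (7.91 to 12.1) CPM in DoubleTg and 98.0 (82.3 to 116) against 59.1 (51.5 to 67.6) CPM in TripleTg, and Sfrp2 at 206 against 37.2 and 159 against 84.2 CPM. Whether the ratios differ between the libraries was not tested. Axin2, a feedback target of β-catenin signalling, stood at 20.7 (15.6 to 26.8) CPM in DoubleTg and 11.5 (6.59 to 18.7) CPM in TripleTg contractile cells, above the 2.49 CPM of epithelial cells in DoubleTg and below their 74.0 CPM in TripleTg. Of the 13 listed Wnt targets 2 were counted in DoubleTg, both within 2-fold, and 5 in TripleTg, where Axin2 and Notum were lower in contractile cells.

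Genes of Pi16-type interstitial fibroblasts were mostly within 2-fold when all cells were taken, and part of them were lower in the filtered contractile cells. Over all cells 1 of 6 counted genes was higher (Pi16) and 1 lower (Dpt) in DoubleTg, and 1 of 7 was higher (Pi16) and 1 lower (Cd34) in TripleTg. In filtered cells none was higher, 4 of 7 were lower in DoubleTg and 3 of 7 in TripleTg, with medians of -1.33 and -0.58. Cd34, a surface sialomucin, stood at 40.6 against 122 CPM in filtered DoubleTg and 33.8 against 145 CPM in filtered TripleTg cells. Clec3b (tetranectin) stood at 17.0 against 77.9 and 89.2 against 270.3 CPM, and the actin-severing protein gelsolin (Gsn) at 4614 against 11590 and 922 against 3293 CPM. Hgf, the mouse gene of the MET ligand, followed them at 105 (91.0 to 119.9) against 297 (279 to 316) and 51.8 (37.5 to 69.8) against 145 (121 to 174) CPM. The transgene hHGFtg was also lower, at 768 against 1901 and 67.5 against 358 CPM. Cxcl13, a B cell chemokine, was not detected in DoubleTg contractile cells (0 UMIs) against 67.8 CPM in the Acta2/Tagln-low cells, at least 61.3-fold lower against a floor of 3 UMIs over the class, and it had 2 UMIs in TripleTg contractile cells against 16.9 CPM, a log2 ratio of -3.55 (-6.62 to -1.63).

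The inflammatory genes were mixed. In DoubleTg 4 of 14 counted were higher (Il6, Il33, Cxcl14 and Ccl11) and 3 lower (Cxcl1, Ccl2 and Ccl7), although Cxcl1 was at 0.041 without cells with Myh11, Actg2, Des or Rgs5. In TripleTg 3 of 15 were higher (Il6, Lif and Cxcl14) and none lower, and in filtered TripleTg cells 1 of 15 was higher, Saa3. One TripleTg contractile cell held 134 UMIs of Saa3 and the others 4 UMIs. Over all cells its TripleTg ratio was 0.07, and -5.01 without that cell. In filtered DoubleTg cells 3 were higher (Il33, Cxcl14 and Ccl11) and 4 lower (Cxcl1, Cxcl2, Ccl2 and Ccl7). Cxcl14, a chemokine of prostate stroma, stood at 4228 (4151 to 4306) against 799 (780.5 to 817) CPM in DoubleTg and 3517 (3419 to 3617) against 1547 (1507 to 1588) CPM in TripleTg, but its filtered TripleTg ratio was 0.02. The monocyte attractants Ccl2 and Ccl7 were lower in DoubleTg contractile cells, at -1.05 and -1.52 over all cells and -2.06 and -2.37 in filtered cells, and in TripleTg they were at 0.45 and 0.70. One cell held 72.4% of the DoubleTg Ccl11 UMIs, and without cells with Rgs5 the DoubleTg ratio of Ccl11 was -0.80. Of the TGF-β and BMP genes 2 of 15 were higher in DoubleTg, among them Ccn2, a matricellular protein, and 4 of 14 in TripleTg, among them Tgfb2, Tgfb3 and Inhba, where Bmp2 was lower. In filtered TripleTg cells none of 15 was higher and Bmp2 was lower.

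Stromal growth factor and receptor genes were mostly within 2-fold of each other in the classes. Of the 16 genes of that list, 8 were counted in DoubleTg, where Met, an epithelial gene in prostate, was lower, and 7 in TripleTg, where Pdgfrb was higher and Nrg1 lower. In filtered cells none was higher, and 2 of 7 were lower in DoubleTg (Hgf and Nrg1) and 2 of 6 in TripleTg (Hgf and Fgf7). Pdgfrb, a receptor of pericytes and fibroblasts, stood at 54.2 against 30.6 and 157 against 69.9 CPM. Among immediate early genes, which dissociation can induce, only Fos was past 2-fold in DoubleTg (1.04, and 0.35 in filtered cells) and none in TripleTg, of 10 and 9 counted. No proliferation gene reached 50 CPM in the contractile or Acta2/Tagln-low cells of either library, and Mki67 had 0 UMIs in DoubleTg and 16 UMIs in TripleTg contractile cells.

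Across the 2528 genes counted in both libraries, 82 were at least 2-fold higher and 58 at least 2-fold lower in contractile cells of both, and 6 were past 2-fold in opposite directions. In filtered cells the numbers were 18, 17 and 5 of 2478. The rule fixed Acta2 and Tagln as higher in both, and these are not among the counted genes.

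The levels were then set out by range of Acta2 and Tagln within the members, which is a range of the score that chose them. In DoubleTg 64 cells had 5 to 10 Acta2 and Tagln UMIs per 10000, 57 had 10 to 20, 55 had 20 to 50 and 81 had 50 and over, and in TripleTg the ranges held 34, 29, 31 and 23 cells. Myh11 stood at 4.94, 22.0, 114 and 397 CPM along the DoubleTg ranges and at 2.78, 8.61, 28.3 and 197 CPM in TripleTg. Actg2 stood at 3.29, 16.5, 66.0 and 412 CPM, and at 5.55, 25.8, 141 and 958 CPM. Myh11 and Actg2 thus lay mostly in the members with the most Acta2 and Tagln. Des was present along the whole range, at 173, 182, 229 and 625 CPM in DoubleTg and 49.99, 129, 192 and 252 CPM in TripleTg. Lum (lumican) and Clec3b ran the other way in TripleTg, Lum from 1866 to 446 CPM and Clec3b from 139 to 12.3 CPM between the lowest and the highest range. In DoubleTg Lum was at 395 and 401 CPM and Clec3b at 44.4 and 3.15 CPM. Frzb and Igfbp2 were higher in the top DoubleTg range, Frzb at 49.4 and 267 CPM and Igfbp2 at 289.6 and 1198 CPM. Epcam stood at 474 and 79.8 CPM in the lowest and highest DoubleTg range and at 319 and 52.3 CPM in TripleTg, so epithelial RNA moved along the ranges too and its part in them was not tested.

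**Figure D2:**
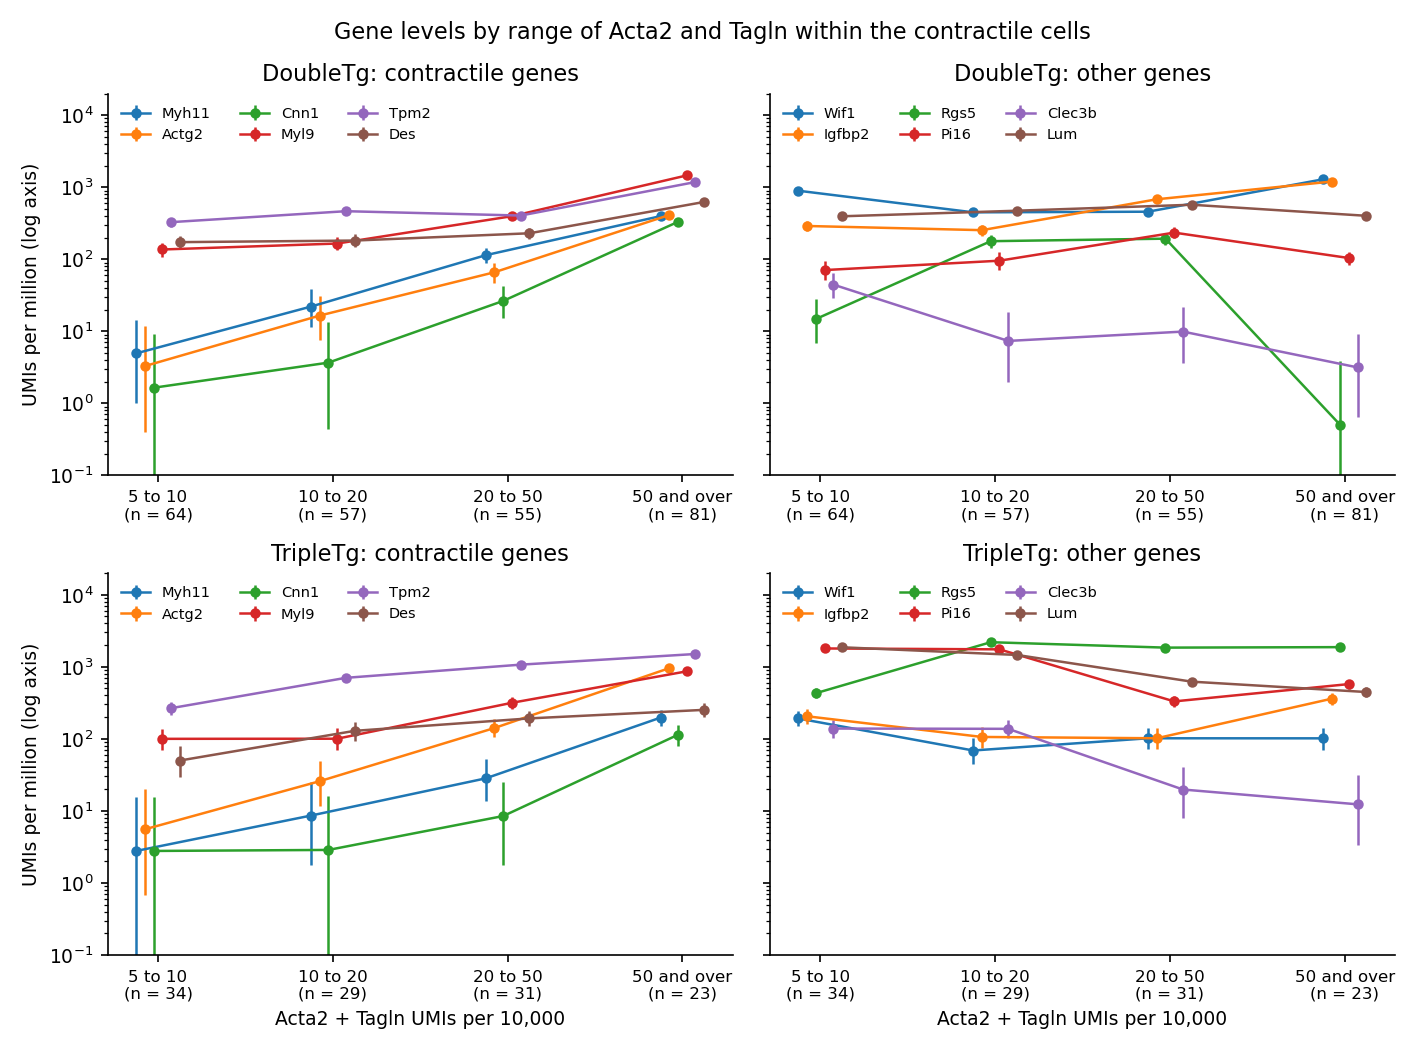
CPM on a log axis against the range of Acta2 and Tagln UMIs per 10000 among the contractile cells, for DoubleTg (top) and TripleTg (bottom), with 6 contractile genes (left) and 6 other genes (right). Bars are exact Poisson 95% intervals of the summed UMIs, n is the number of cells in a range and a level of 0 is drawn at 0.5; Myh11, Actg2 and Cnn1 climb along the ranges in both libraries, and Rgs5 is at 0 UMIs in the top DoubleTg range and at 1875 CPM in the top TripleTg range.

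Members that held Rgs5, Wif1 or Pi16 were set apart after these values had been seen, to show what the class was made of in each library. Rgs5, a G-protein regulator that defines pericytes (chromosome 1, 169655501 to 169695813, plus strand), was present in 7 of 257 DoubleTg members (2.72%, 1.10 to 5.53) and 27 of 117 TripleTg members (23.1%, 15.8 to 31.8). Wif1 was present in 78 (30.4%, 24.8 to 36.4) and 17 (14.5%, 8.70 to 22.2), and Pi16, a peptidase inhibitor of adventitial fibroblasts (chromosome 17, 29317680 to 29330593, plus strand), in 75 (29.2%, 23.7 to 35.2) and 63 (53.8%, 44.4 to 63.1). With each cell thinned to 1000 UMIs the shares in DoubleTg and TripleTg were 1.95% and 18.8% for Rgs5, 19.1% and 7.69% for Wif1 and 7.39% and 37.6% for Pi16. Rgs5 and Wif1 were found in the same cell 0 times in DoubleTg and 4 times in TripleTg, and Rgs5 and Pi16 1 time and 4 times. Wif1 and Pi16 were found together in 19 DoubleTg and 4 TripleTg members. Where they have no Rgs5, such cells are counted as Wif1 cells below. The share of Wif1-bearing cells was thus higher in the DoubleTg library, and the shares of Rgs5-bearing and Pi16-bearing cells in the TripleTg library, with no replicate to show how much such shares vary between animals. In thinned immune cells, which should lack these genes, the DoubleTg and TripleTg shares were 0.348% and 0.50% for Rgs5, 0% and 4.5% for Wif1 and 0% and 0.50% for Pi16. The TripleTg Wif1 share of 7.69% (3.58 to 14.1) overlapped that background of 4.5% (2.08 to 8.37), and so did the DoubleTg Rgs5 share of 1.95% (0.635 to 4.48) with 0.348% (0.00882 to 1.93). The 7 DoubleTg cells with Rgs5 held 223 UMIs of it (3364 CPM) and the 27 TripleTg cells 2182 UMIs (4932 CPM), a level within cells that were chosen by this gene. Rgs5 was also found in 0.921% of DoubleTg and 7.51% of TripleTg Acta2/Tagln-low cells, Wif1 in 19.8% and 32.0%, and Pi16 in 19.0% and 44.3%. The TripleTg share of Wif1 was thus lower in members than in Acta2/Tagln-low cells.

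The Rgs5-bearing members had other pericyte genes and few fibroblast receptors. In the 27 TripleTg cells Higd1b stood at 1017 CPM, Notch3 at 203 CPM, Kcnj8 and Abcc9, the subunits of a vascular potassium channel, at 183 and 276 CPM, and Mcam at 463 CPM. Their Pdgfrb level was 371 CPM and their Pdgfra level 40.7 CPM, against 53.9 and 192 CPM in the 55 TripleTg members with Pi16 and neither of the other genes. The 7 DoubleTg cells had Pdgfrb at 332 and Pdgfra at 30.2 CPM. Klk8, a secreted protease, stood at 653 CPM in the TripleTg group and at 0, 2 and 0 UMIs in the other 3. The rule therefore also took in TripleTg cells that held pericyte genes together with collagen.

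The level of Myh11 varied between the groups. In DoubleTg Myh11 stood at 171 CPM in the 78 cells with Wif1, 26.8 CPM in the 55 with Pi16 and 258 CPM in the 117 with none of the 3 genes, and Cnn1 at 201, 19.6 and 106 CPM. Without the highest cell of each group these Cnn1 levels were 149.9, 9.22 and 69.6 CPM. In TripleTg Myh11 stood at 136 CPM in the Rgs5 cells and 134 CPM in the 22 cells with none, and at 78.8 and 69.3 CPM without the highest cell of each, while the 13 Wif1 cells held 1 UMI and the 55 Pi16 cells 0 UMIs. Actg2 in TripleTg was at 644 CPM in Rgs5 cells against 78.8 CPM in Pi16 cells, but one Rgs5 cell held 146 of the 285 UMIs, and without it the level was 339.7 CPM. The Wif1 cells of DoubleTg had Igfbp2 at 1258 CPM against 382 and 306 CPM in the Pi16 cells and the rest. The Pi16 cells of TripleTg had complement C3 at 1618 CPM and the Wnt antagonist Sfrp1 at 2572 CPM, against 378 and 573 CPM in the Pi16 cells of DoubleTg. Epithelial RNA was present in 55 of the 117 DoubleTg members and 14 of the 22 TripleTg members with none of the 3 genes.

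**Figure D3:**
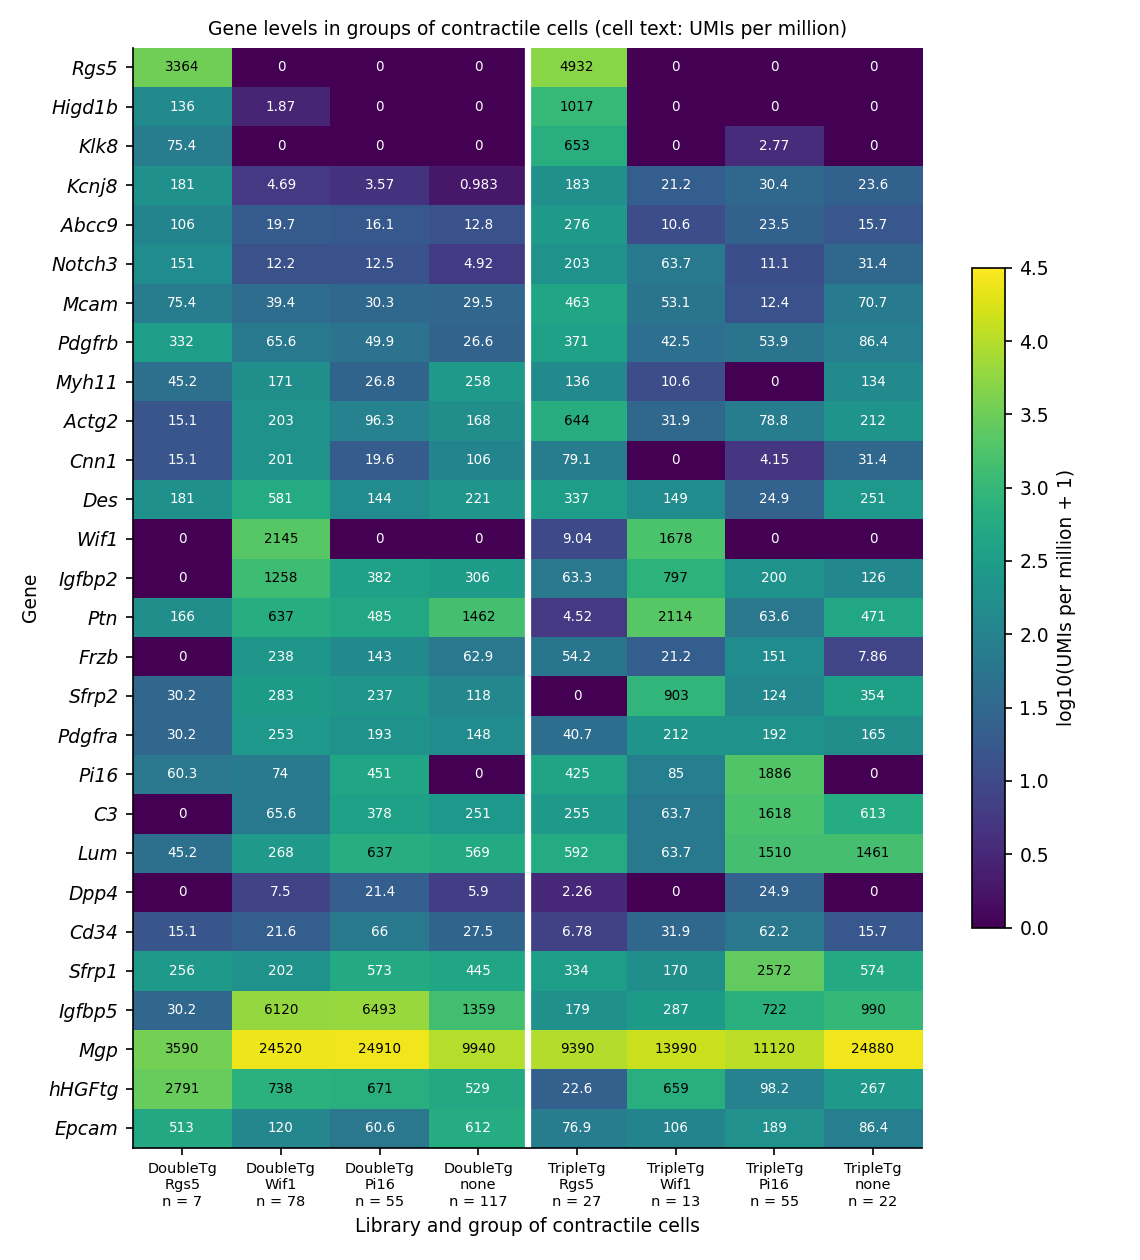
Heat map of 28 genes in groups of contractile cells of DoubleTg (left 4 columns) and TripleTg (right 4 columns), with a UMI of Rgs5, else Wif1, else Pi16, or none of the 3. Colour is log10 of CPM plus 1, the number in each cell is CPM and n is the number of cells; the pericyte genes from Rgs5 to Pdgfrb are brightest in the Rgs5 columns, which hold 7 DoubleTg and 27 TripleTg cells.

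The contractile cells of the 2 genotypes were then compared, with TripleTg over DoubleTg. Of 3130 genes counted, 303 (9.68%) were at least 2-fold higher and 241 (7.70%) at least 2-fold lower in TripleTg, and the median log2 ratio over them was 0.04. TMM scaling shifted every ratio by -0.10 and gave 269 higher and 296 lower genes. In filtered cells 10.6% were higher and 8.80% lower of 3137, and without the members that held Rgs5 9.12% were higher and 7.82% lower of 3069. These counts describe 2 libraries and their cell makeup, not the conditions. The rule did not use this contrast, but it fixed a minimum of Acta2, Tagln and collagen in both, so those genes are not counted.

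Some smooth muscle genes were lower in the TripleTg contractile cells, among them Myh11, Cnn1 and Des. Of the 17 contractile apparatus genes counted, 5 were lower (Myh11, Cnn1, Smtn, Des and Csrp1) and 1 higher (Ppp1r14a), with a median of -0.48, and of the 5 counted smooth muscle markers 4 were lower. Smtn, 1 of these 4, was at 0.05 after thinning to 1000 UMIs per cell and at -0.88 without the DoubleTg member with the most of it. Myh11 was at 56.2 CPM in TripleTg and 170.4 CPM in DoubleTg (log2 -1.60, -1.97 to -1.25), Cnn1 at 30.3 and 123 CPM (-2.02, -2.52 to -1.56) and Des at 154 and 346 CPM (-1.17, -1.39 to -0.96). Actg2 was at 0.71 (0.51 to 0.92), and at 0.03 (-0.21 to 0.27) without the one TripleTg cell that held 146 of its UMIs. In filtered cells 6 of 17 were lower and 1 higher, with a median of -0.31. Without the Rgs5-bearing members 8 of 16 were lower and none higher, with a median of -0.95, and Myh11 was at 19.1 against 174 CPM (-3.19, -3.96 to -2.51), Cnn1 at -4.09, Des at -2.37 and Actg2 at -0.86 (-1.21 to -0.53). The share of contractile apparatus genes lower in TripleTg was above that of all genes with and without these cells, and the direction of Ppp1r14a, a myosin phosphatase inhibitor (2.91 with and -0.55 without them), turned with them. In the Acta2/Tagln-low cells 4 of the 11 counted were lower and none higher, with a median of -0.85, and in filtered Acta2/Tagln-low cells 1 of 11 was higher and 1 lower, with a median of -0.27. Over all genes counted there the median was -0.10 (quartiles -0.49 and 0.35), and -0.07 (quartiles -0.54 and 0.49) in filtered cells. The share of all genes past 2-fold was not counted for the Acta2/Tagln-low cells, so nothing is read from these counts.

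Pericyte genes were higher in TripleTg, in 6 of 7 genes counted with a median of 2.59, and in 6 of 7 with a median of 2.18 in filtered cells. Rgs5 stood at 1573 (1508 to 1640) against 82.3 (71.8 to 93.8) CPM, Higd1b at 324 against 4.06 CPM and Notch3 at 77.9 against 12.9 CPM. They were higher in the Acta2/Tagln-low cells as well, Rgs5 at 449.6 against 34.1 CPM. Without the Rgs5-bearing members 1 pericyte gene reached 50 CPM, Cspg4, and it was lower (-2.01). Fabp5, a fatty acid binding protein named after its values were seen, had a ratio of 4.22 over all members and 0.98 without them.

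Of 33 matrix genes 17 were higher in TripleTg and 16 within 2-fold, with none lower and a median of 1.17, where 9.68% of all genes were higher. In filtered cells 16 were higher and 3 lower (median 0.92), and without the Rgs5-bearing members 13 were higher and none lower (median 0.72). Fn1 stood at 1732 (1663 to 1802) against 187 (171 to 204) CPM (3.21, and 2.85 without Rgs5 cells), Col14a1, a fibril-associated collagen, at 452 (417 to 489) against 24.4 (18.8 to 31.0) CPM (4.21 and 4.24), and Mmp3, a matrix protease, at 374 against 35.8 CPM (3.39 and 3.66). These 3 kept their direction in each case. The basement membrane collagens Col4a1 and Col4a2 were at 1.89 and 2.01 over all members and 0.36 and 0.61 without Rgs5 cells, and Postn and Col6a3 at 1.72 and 1.23 over all and -0.02 and -0.14 without them. In the Acta2/Tagln-low cells the list had a median of 1.39, with Fn1 at 4.04, Col14a1 at 3.01 and Mmp3 at 2.98. The rule genes Col1a1 and Col3a1 had levels of 3117 against 979 CPM and 4434 against 750.3 CPM.

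Genes of interstitial fibroblasts were higher in TripleTg in 4 of 6 genes counted (Pi16, Clec3b, C3 and Dpt), and Gsn was lower. Pi16 stood at 1125 (1070 to 1182) against 124 (111 to 138) CPM (3.18), C3 at 986 against 198 CPM (2.31), Dpt (dermatopontin) at 195 against 29.5 CPM (2.72) and Gsn at 1195 against 4210 CPM (-1.82). The same 5 genes were past 2-fold in the same direction in filtered cells and without Rgs5-bearing members. The ratio in the Acta2/Tagln-low cells was 2.99 for Pi16, 2.13 for C3 and -1.46 for Gsn.

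Secreted regulators split by gene. Of the 12 Wnt genes counted 5 were higher in TripleTg (Wnt4, Wnt5a, Sfrp1, Sfrp4 and Dkk3) and 4 lower (Wnt2, Wnt11, Rspo3 and Wif1), with a median of -0.48 and with Wnt2 at 0.50 without cells with Myh11, Actg2, Des or Rgs5. In filtered cells 3 of 11 were higher (Sfrp1, Sfrp4 and Dkk3) and 6 lower (Wnt2, Wnt11, Rspo3, Wif1, Sfrp2 and Dkk2), with a median of -1.51, and without Rgs5-bearing members 4 of 11 were higher (Wnt4, Sfrp1, Sfrp4 and Dkk3) and 3 lower (Wnt11, Rspo3 and Wif1). Sfrp1 stood at 1512 (1448 to 1578) against 372 (349 to 395) CPM (2.02), Rspo3, an amplifier of Wnt signals, at 58.4 (46.4 to 72.6) against 209 (192 to 227) CPM (-1.84) and Wif1 at 117 against 844 CPM (-2.85, -3.09 to -2.62). Wif1 went the other way in the Acta2/Tagln-low cells (1.03), and in filtered Acta2/Tagln-low cells its ratio was -0.85. What part epithelial RNA had in this was not tested. Of the 8 IGF genes counted Igf1 and Igfbp4 were higher and Igfbp2, Igfbp3 and Igfbp5 lower, and the same 5 genes were past 2-fold in filtered cells and without Rgs5-bearing members. Igfbp5 was at -2.97 (-3.08 to -2.87) and Igfbp2 at -1.85 (-2.05 to -1.67), while in the Acta2/Tagln-low cells they were at -0.42 and -0.54. Igfbp4 stood at 1998 against 474 CPM (2.08, and 2.31 in Acta2/Tagln-low cells).

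**Figure D4:**
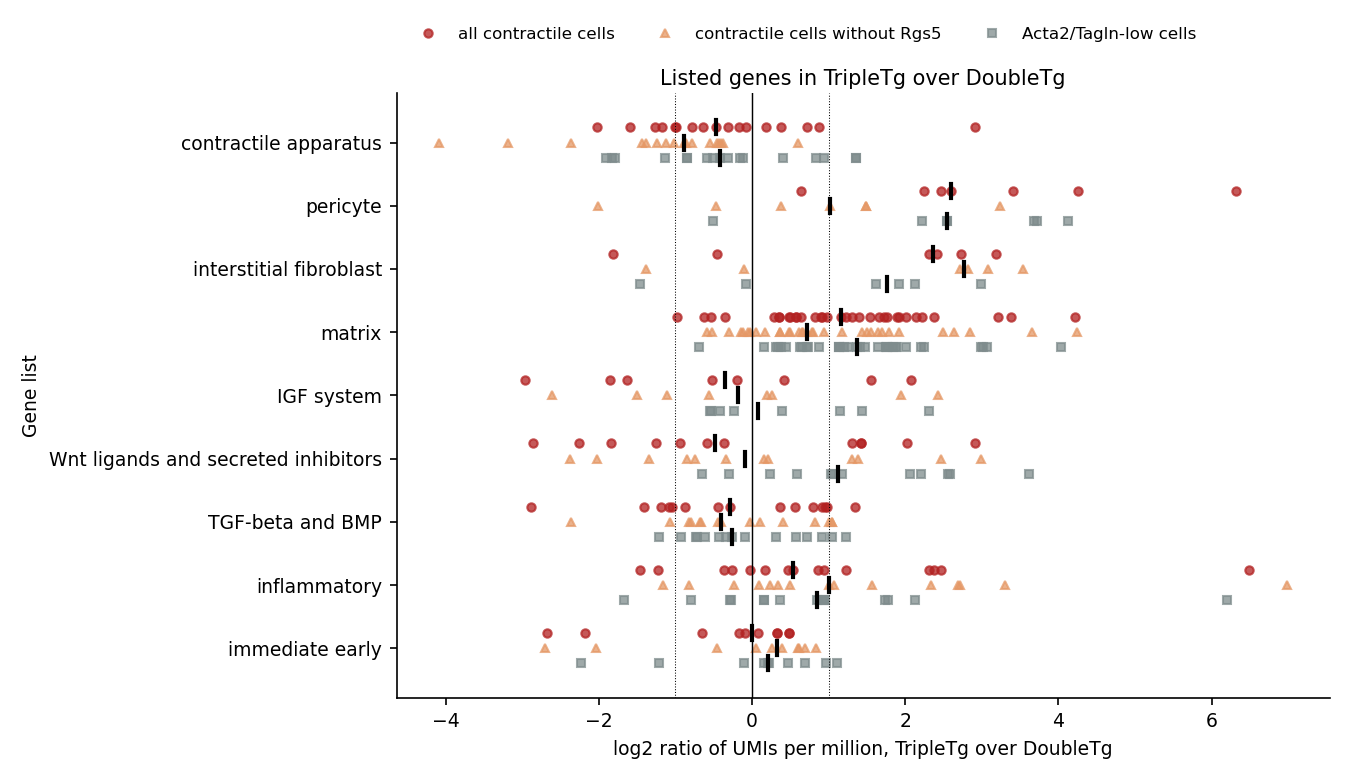
Log2 ratio of CPM in TripleTg over DoubleTg for the genes of 9 lists with at least 50 CPM in either library's contractile cells, in all contractile cells (red circles), contractile cells without an Rgs5 UMI (orange triangles) and Acta2/Tagln-low cells (grey squares). Each point is a gene, short black bars are medians and dotted lines mark 2-fold; medians of the matrix list are 1.17 and 0.72 with and without Rgs5 cells, and pericyte genes are highest where Rgs5 cells are kept.

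Inflammatory genes were higher in TripleTg in 5 of 15 counted (Cxcl1, Ccl2, Ccl7, Saa3 and C3), and Icam1 and Vcam1, adhesion molecules for leukocytes, were lower at -1.22 and -1.46, with Vcam1 at 0.088 without cells with Myh11, Actg2, Des or Rgs5. Cxcl1, a neutrophil attractant, stood at 1592 (1526 to 1660) against 288 (269 to 309) CPM, Ccl7 at 725 (681 to 772) against 139 (126 to 154) CPM and Ccl2 at 1496 against 640.0 CPM. In the Acta2/Tagln-low cells the ratios were 0.85, 0.15 and -0.27. In filtered cells 6 of 15 were higher and 2 lower, and without Rgs5-bearing members 8 were higher and Vcam1 lower. Saa3 came from one cell for 97.1% of its TripleTg UMIs. Of the TGF-β and BMP genes 1 of 15 was higher (Tgfb2) and 5 were lower, among them Bmp4 at 7.21 against 53.5 CPM (-2.89) and Id3, a target of BMP signals, at 749.8 against 1551 CPM (-1.05). Without Rgs5-bearing members 3 were higher (Tgfbr1, Tgfbr2 and Inhba) and 2 lower (Bmp4 and Id2), so neither Tgfb2 nor Id3 was past 2-fold, and in filtered cells Inhba was higher and 5 were lower (Bmp2, Bmp4, Id2, Id3 and Thbs1). The stress chaperones Hspa1a and Hspa1b were lower in TripleTg (-2.18 and -2.68), while Fos, Jun and Egr1 lay within 2-fold (0.48, 0.33 and 0.33). Of the 7 growth factor and receptor genes counted, Pdgfrb was higher (1.53) and Nrg1 lower (-2.40), and none was higher without cells with Rgs5.

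The human HGF transgene was lower in TripleTg contractile cells, at 128 (109.5 to 148) against 696 (665 to 728) CPM (log2 -2.45, -2.68 to -2.23), and also in the Acta2/Tagln-low cells (-1.71) and in epithelial cells, at 79.4 against 354 CPM. The Cre-dependent hMETtg was at 29.5 (23.4 to 36.7) and 23.8 (16.4 to 33.4) CPM in contractile cells, against 432 and 39.5 CPM in epithelial cells and 15.3 and 5.52 CPM in immune cells, which should lack it. Within the TripleTg members the 13 cells with Wif1 and no Rgs5, of which 8 had epithelial RNA, stood at 159 (89.2 to 263) CPM of hMETtg, and at 81.1 CPM without the one cell that held 8 of the 15 UMIs, while the other groups stood between 4.52 and 39.3 CPM. The removal of Ctnnb1 exon 3 is not visible in 3′ counts and was not checked.

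The 12 highest genes of this comparison, Hba-a1, Hbb-bs, Hbb-bt, Hba-a2, Hp, Klk8, Saa3, Higd1b, Gzme, Svs6, Svs4 and Itga4, included the globins of red blood cells and seminal vesicle proteins. Hbb-bs stood at 2562 (2479 to 2648) CPM in TripleTg against 8 UMIs in DoubleTg, and one cell held 76.3% of the TripleTg UMIs. One cell held 98.2% of the TripleTg UMIs of Gzme, a granzyme, which had 0 UMIs in DoubleTg. TripleTg epithelial cells held Hbb-bs at 1063 CPM and Svs4 at 24790 CPM, so RNA of these genes was also present in other cells of the library. The 12 lowest, Sbp, Krt15, Erdr1, 9530002B09Rik, Defb50, Msmb, Spink1, Sbpl, 9530053A07Rik, Spag11b, Krt5 and Pbsn, were mostly secretory and basal epithelial genes. In filtered cells Arl4d, Wif1, Col4a4 and Npy took the places of Krt15, 9530053A07Rik, Krt5 and Pbsn among the 12, with Krt5 at 0.045, and Ly6d and Bmper those of Svs6 and Itga4 among the highest. Sbp, spermine binding protein of prostate secretion, had 0 UMIs in TripleTg and 1695 (1646 to 1744) CPM in DoubleTg contractile cells, at least 784-fold lower against a floor of 3 UMIs over the class, and it stood at 52120 CPM in DoubleTg epithelial cells. Of the luminal secretory genes all 4 counted were lower (median -6.14). Their summed level in contractile cells was 2435 CPM in DoubleTg and 65.6 CPM in TripleTg, against 74200 and 1703 CPM in the epithelial cells.

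Immune, endothelial, and nerve and glia markers were low in the members, and their part in the comparisons was not tested. The 6 immune markers summed to 144 CPM in DoubleTg and 278 CPM in TripleTg contractile cells, against 25820 and 30300 CPM in immune cells, with Ptprc at 0 by the rule, and 2 of the 3 counted, Lyz2 and Cd52, were higher in TripleTg than in DoubleTg contractile cells. The 6 endothelial markers summed to 59.4 and 49.02 CPM, against 24.6 and 27.1 CPM in Acta2/Tagln-low cells, with Pecam1 at 0 by the rule and Cldn5 at 0 in DoubleTg. The 4 nerve and glia markers summed to 9.59 and 36.1 CPM, with Sox10, a glial transcription factor, at 0 UMIs in the contractile cells of both libraries. In the Acta2/Tagln-low cells of DoubleTg and TripleTg the nerve and glia markers summed to 11.7 and 88.7 CPM and the immune markers to 174 and 384 CPM.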

How the data were processed

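Prostate tumours of the DoubleTg and TripleTg genotypes, 1 library each, were profiled by 10x Genomics 3′ v3 single-cell RNA-seq. The number of animals per library is not stated here. The authors deposited raw UMI counts per gene and cell, made with Cell Ranger 6.0.2 per the processing notes on mm10 with the transgene sequences added, and one matrix header names version 6.1.1. The DoubleTg matrix holds 12072 cells and the TripleTg matrix 9492, all of which meet the gene and mitochondrial limits, against 10598 in DoubleTg. Counts were summed over the cells of a class and given as counts per 1000000 UMIs (CPM), with exact Poisson intervals. Log2 ratios have conditional binomial 95% intervals, with sums under 3 UMIs set to a floor of 3 except for Actg2, Cnn1 and Cxcl13, whose ratios use the UMIs as counted where above 0, and shares have Clopper-Pearson intervals. All cover counting error only. Genes were kept at 50 CPM or more in at least one class and counted as higher or lower at 2-fold, leaving out the rule genes. With 1 library per group no test was made. Single-cell depth was compared after thinning to 1000 UMIs, with 1000 epithelial cells drawn at random. The 12 highest and lowest genes of each comparison and listed genes are named, except a few items that are not reported here, and Fabp5, Svs2, Svs5 and the Rgs5, Wif1 and Pi16 groups were chosen after values were seen. The members and lists were chosen with earlier results of these data known. No doublet caller was run. Alternatives were another depth, Acta2 and Tagln or collagen minimum, cells with muscle genes, Rgs5 or epithelial RNA left out, the cell with the most UMIs of a gene left out, thinning, edgeR 4.0.16 TMM scaling, means per cell and no filter on low genes. Ratio estimates were tested on simulated data. Python 3.11.15, NumPy 2.4.6, SciPy 1.17.1, pandas 2.3.3, matplotlib 3.10.9 and R 4.3.3 were used. Promoters came from RefSeq (GRCm38.p6) and gene positions from GENCODE M21.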

Additional observations from a re-analysis of the deposited data

Results flagged for a closer look

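For 4 of the genes named here the ratio of contractile over Acta2/Tagln-low cells was past 2-fold in opposite directions in the libraries, and the difference between the libraries was not tested. Wif1 had a log2 ratio of -2.61 in TripleTg and 1.27 in DoubleTg, and -3.97 and 0.35 in filtered cells, and without the highest DoubleTg contractile cell the DoubleTg ratio was 0.93. Fabp5 had 1.69 in TripleTg and -1.42 in DoubleTg, and 3.12 and -0.55 in filtered cells, with one cell holding 43.0% of its UMIs in TripleTg contractile cells. The TripleTg ratio of Fabp5 was 0.92 without that cell, -1.52 without cells with Rgs5 and -2.50 without cells with Myh11, Actg2, Des or Rgs5, so its direction rests on the Rgs5-bearing cells. The seminal vesicle proteins Svs2 and Svs5 had -3.14 and -2.94 in TripleTg and 3.68 and 2.92 in DoubleTg, where one contractile cell held 94.5% and 88.1% of their UMIs. In filtered cells Svs2 was at -0.51 in TripleTg and -0.53 in DoubleTg, and Svs5 at -0.51 and -0.45.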

How the results depend on the processing

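Each genotype was 1 library, so no replicate could be left out, and no paired analysis was possible because each group has a single sample and no test was made. TMM scaling turned the direction of no reported gene past 2-fold and kept the counts over all genes within 1.5 times. In DoubleTg it left no interstitial fibroblast and no immediate early gene higher (1 of each as reported) and 2 growth factor genes lower (1 as reported), and in TripleTg over DoubleTg 1 matrix and 1 Wnt target gene were lower (0 as reported). A minimum of 3000 UMIs per cell or of 5 Acta2 and Tagln UMIs moved at most 6 of the 236 reported gene ratios beyond their intervals, and neither left a count over 1.5 times away. TMM scaling moved 44, leaving out cells with Rgs5 82 and requiring a Col1a1, Col1a2 or Col3a1 UMI 114. The minimum of 20 given next moved 136, and leaving out cells with Myh11, Actg2, Des or Rgs5 moved 149. Leaving out cells with epithelial RNA moved 155, means of per-cell values 156 and thinning to 1000 UMIs 183. Ratios that turned direction are counted apart from these. A minimum of 20 per 10000 UMIs of Acta2 and Tagln left 136 DoubleTg and 54 TripleTg members, leaving out cells with Myh11, Actg2, Des or Rgs5 left 102 and 59, and leaving out cells with epithelial RNA left 56 in TripleTg. At the minimum of 20, 336 genes were at least 2-fold higher and 254 lower in DoubleTg contractile cells (215 and 149 as reported), and the DoubleTg ratios of Ccl11, Svs2 and Svs5 turned to -0.50, -0.59 and -0.28, the TripleTg ratio of Pi16 to -0.056 and the TripleTg over DoubleTg ratio of Svs2 to 1.12. With cells required to hold a Col1a1, Col1a2 or Col3a1 UMI, chosen after seeing the data, 100 were higher and 87 lower in DoubleTg and 122 higher in TripleTg (229 as reported), and Epcam in TripleTg over DoubleTg turned to 0.063. With means of per-cell values 139 were higher in DoubleTg, and 120 higher and 107 lower in TripleTg (174 lower as reported). Without a filter on low genes the counts were 2502 higher and 877 lower in DoubleTg, 1825 and 1055 in TripleTg, and 1884 and 1064 in TripleTg over DoubleTg (303 and 241 as reported). Thinning to 1000 UMIs gave 231 lower in DoubleTg, 423 higher in TripleTg, and 576 higher and 364 lower in TripleTg over DoubleTg. It turned Kcnj8 in TripleTg to -0.35 and Smtn in TripleTg over DoubleTg to 0.048. The DoubleTg and TripleTg shares of members with a UMI were then 19.1% and 7.69% for Wif1, 84.8% and 85.5% for Mgp, 47.5% and 21.4% for Igfbp5 and 8.95% and 4.27% for Myh11. Without cells with Myh11, Actg2, Des or Rgs5, 78 genes were lower in DoubleTg, and 565 were higher and 417 lower in TripleTg over DoubleTg. The ratios of 9530002B09Rik, Cxcl1 and Defb50 in DoubleTg turned to 0.14, 0.041 and 0.56, those of Fabp5 and Igfbp2 in TripleTg to -2.50 and -0.036, and those of Fabp5, Mcam, Vcam1 and Wnt2 in TripleTg over DoubleTg to -0.24, -0.33, 0.088 and 0.50. Without cells with Rgs5, chosen after seeing the data, Ccl11 in DoubleTg turned to -0.80, Fabp5 and Itga4 in TripleTg to -1.52 and -0.62, and Col6a3, Mcam, Postn and Ppp1r14a in TripleTg over DoubleTg to -0.14, -0.47, -0.022 and -0.55. Without cells with epithelial RNA 109 genes were higher and 61 lower in DoubleTg and 102 higher and 109 lower in TripleTg. Krt5, Svs2 and Svs5 in DoubleTg turned to 0.29, -0.53 and -0.45, Cbr2, Epcam and Lypd3 in TripleTg to 1.02, 0.11 and 0.60, and Epcam, Krt5 and Svs2 in TripleTg over DoubleTg to 0.16, 0.045 and 0.50. Leaving out the one member with the most UMIs of a gene, also chosen after seeing the data, took several ratios under 2-fold. These were Wif1, Sfrp1, Pi16, Rgs5 and Fos in DoubleTg (0.93, 0.95, 0.91, 0.78 and 0.89) and Pdgfrb and Fabp5 in TripleTg (0.97 and 0.92). Smtn, Epcam and Id3 in TripleTg over DoubleTg went to -0.88, -0.998 and -0.999. Ccl11, Svs2 and Svs5 in DoubleTg turned to -0.11, -0.50 and -0.14 and Svs2 in TripleTg over DoubleTg to 0.94. Saa3 in TripleTg went from 0.067 to -5.009. The cause of these shifts was not tested. The 56 filtered TripleTg members limit the depth of the filtered ratios that use them.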
